A study of Mus musculus with 12 samples.

Results

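The resting transcriptome of thioglycolate-elicited mouse peritoneal macrophages (PMφs) was read from the 3 control libraries of a series of 12. These libraries were chosen by their label alone, which reads Control. The other labels name oxidized low-density lipoprotein (oxLDL), lipopolysaccharide (LPS) or both, so Control was taken to mean neither. The cells were wild-type (WT). The donors were C57BL/6J mice of both sexes at 8 to 12 weeks of age. Aged thioglycolate (4%, 1 ml) was given into the peritoneal cavity 4 days before the cells were washed out. An experiment drew on 1 or 2 litters, with no more than 10 animals, whose cells were mixed before being split between the groups and grown in DMEM with 10% FBS. Adherent cells were used from 18 h onward, and the methods describe a 24 h culture with or without oxLDL before stimulation. Poly(A) RNA was sequenced, and no treated library entered any value given here. The libraries carry replicate numbers 1 to 3, but the labels do not say whether these were separate pools of mice. Their sex-linked transcripts, given below, differed, so the libraries did not hold the same mix of male and female cells. The SD between them may still be partly technical.

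Thioglycolate provokes a sterile peritonitis in which blood monocytes enter the peritoneal cavity and become macrophages. Macrophages engulf particles and lipoproteins through surface receptors and degrade them in lysosomes, where acid hydrolases work at the low pH kept by the vacuolar proton pump (V-ATPase). They sense microbes through Toll-like and other pattern receptors, and their identity depends on transcription factors such as PU.1 (Spi1) and the C/EBP family. Resting cells hold many inflammatory genes at low levels until a stimulus arrives.

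Levels are given on 2 scales. A normalized count is the value in the authors' table, which compares libraries for a given gene. The length-scaled level, in TPM (transcripts per 1000000), divides that value by the length of the gene's merged exons and rescales each library to a sum of 1000000, so that genes can be compared with each other. The normalized counts summed to 17152972, 17364285 and 17709731 in replicates 1, 2 and 3. Their spacing implied 21.8, 18.6 and 21.3 M counted reads (M, 1000000). A value of 0 means no counted read. It still allows an expected count of up to 3 reads, which is 2.36 to 2.8 normalized counts and covers counting error only. A gene was called detected at a normalized count of at least 10 in each library.

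All 5 markers fixed for the cell type were detected. Lyz2, lysozyme of myeloid cells, stood at 161969, 161858 and 188038 normalized counts and at 25108 ± 1614 TPM (SD, n = 3). Its close copy Lyz1 read 147 ± 40.8 TPM, and reads of the copies could be split between them in counting. Cd68, a lysosomal glycoprotein of macrophages, stood at 44895, 46738 and 46319 normalized counts and at 7094 ± 195 TPM. The M-CSF receptor Csf1r stood at 363.2, 397.6 and 564.9 TPM, with replicate 3 the highest. Emr1, which encodes the F4/80 antigen, measured 433.8, 319.2 and 499.1 TPM, and Itgam, which encodes CD11b, 292.9, 314.4 and 268 TPM. A wider list of 22 macrophage genes was detected in full, against 52.8% of all protein-coding genes and 27.9% of all named genes. It was chosen with earlier results of these data known, so its share is no test of identity.

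The libraries differed in their sex-linked transcripts. Xist, the noncoding RNA of the inactive X chromosome, read 1, 6730 and 3538 normalized counts. The Y-linked helicase Ddx3y read 1156, 0 and 707. Thus replicate 1 was nearly without Xist, replicate 2 had no Y-linked reads at Ddx3y, Eif2s3y, Kdm5d or Uty, and replicate 3 had both. The methods describe pooled male and female mice. What set this pattern was not tested. Replicate 3 also held the least of the mesothelial and fibroblast transcripts, of which 15 of 19 were detected with a summed level of 1430, 1120 and 640 TPM in replicates 1, 2 and 3. In bulk RNA, fewer cells of a type and less RNA per cell cannot be told apart. Detection needs every library, so leaving 1 out cannot lower the count of 12061 detected genes. It was 12229, 12191 and 12352 without replicates 1, 2 and 3. Taking the mesothelial, fibroblast and sex-linked lists out of the count gave 12046. That removes only the detected members of these lists and does not measure what such cells added to other genes.

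Of 43253 named genes, 12061 (27.9%) were detected and 21869 (50.6%) were at 0 in all 3 libraries. The other 9323 had reads in at least 1 library but fell under the limit in at least 1. Among 21457 protein-coding genes, 11333 (52.8%) were detected and 5942 (27.7%) were at 0, and their median level was 1.41 TPM. Detected genes had a median of 17.5 TPM. The counts of detected list members given here are to be read beside the 52.8% of protein-coding genes. A mean of at least 100 TPM was reached by 1392 genes and of at least 1000 TPM by 99 genes. Protein-coding genes took 98.7% to 98.8% of the signal. The RNA was concentrated in few genes. The 10 highest genes held 16.7%, 16.2% and 17% of the normalized counts, the 100 highest held 33.2% ± 0.165, and 447, 444 and 435 genes sufficed to reach 50%.

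The most abundant messages were lysosomal, iron-storage and lipid-transport genes. Ranked by the mean of the control values, Gpnmb came first. This glycoprotein gene of lysosome-rich macrophages (GRCm38, chr6:49036546-49070929, plus strand) read 579247, 624784 and 670686 normalized counts, the lowest in replicate 1 and the highest in replicate 3. Psap, the precursor of the saposins that help degrade sphingolipids (chr10:60277627-60302597, plus strand), read 495980, 475251 and 493664. Next came the lysosomal proteases Ctsd (377535 ± 42054) and Ctsb (326404 ± 6744), then the ferritin chains Fth1 (274057 ± 41723) and Ftl1 (249228 ± 51977). Lyz2, Ctss, mt-Co1 and Apoe completed the first 10. The following 20 were Mpeg1, Eef1a1, Lgals3, Ctsl, Actb, Mmp12, Mfge8, H2-D1, Lamp1, Anpep, Lpl, Vim, Cd68, Grn, B2m, Lipa, Itgb2, Eef2, Lrp1 and mt-Nd1. They encode, among others, a pore protein of phagosomes, a galectin, an elastase, a lipoprotein lipase, a lysosomal acid lipase and parts of class I MHC.

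Per length the order changed at the top, and 21 of the 30 genes were shared between the rankings. Ftl1, the ferritin light chain, led at 43230, 28321 and 36571 TPM. Psap measured 35465, 34084 and 33961 TPM and Ctsd 29519, 35666 and 28329 TPM. The ranges of these 3 genes overlapped, so their order is not settled by 3 libraries. Ferritin has many processed copies in the mouse genome, which makes its level uncertain. Lyz2, at 24149 to 26972 TPM, lay below all 3. Ctss (17874 to 19453 TPM) and Gpnmb (17448 to 19436 TPM) overlapped each other. The genes that entered the first 30 per length, with merged exons of at most 2.38 kb, were Ctsz, mt-Nd2, mt-Cytb, Spp1, Tyrobp, mt-Nd6, Tpt1, Rplp1 and Tmsb4x. Spp1, the secreted phosphoprotein osteopontin, measured 4010, 3865 and 2365 TPM, with the low value in replicate 3.

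**Figure D1:**
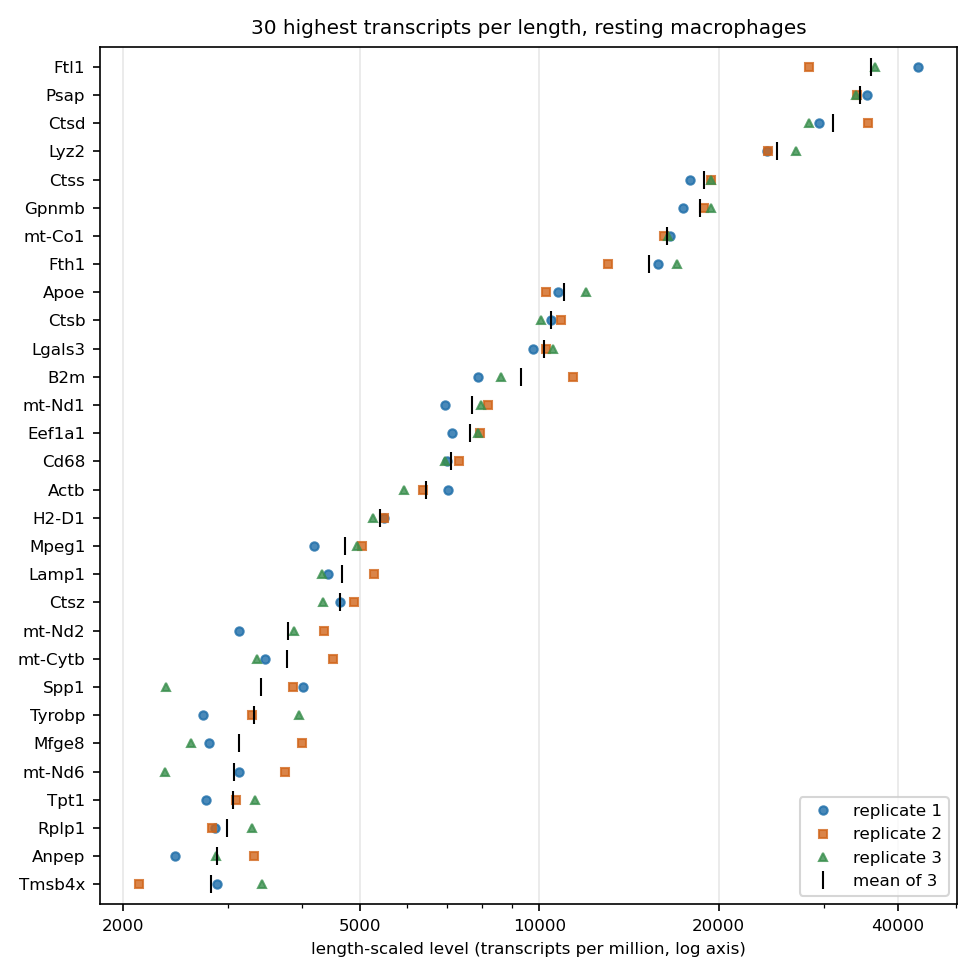
Length-scaled level in TPM (log axis) of the 30 highest genes, with a symbol for each of the 3 control libraries and a bar for their mean. Ftl1 spans 28321 to 43230 TPM, while Psap stays between 33961 and 35465 TPM.

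Lysosomal genes were detected as a block. All 37 acid hydrolases and cofactors of the list were detected, with a median of 240 TPM against 1.41 TPM for all protein-coding genes. After Psap and Lyz2, the highest were Hexa, a hexosaminidase subunit (2558 ± 358 TPM), Lipa, the acid lipase that frees cholesterol from lipoproteins (1131, 1051 and 1251 TPM), and Gusb, beta-glucuronidase (908 ± 127 TPM). Of 19 cathepsins, 13 were detected and 4 that are placental in the mouse, Ctsj, Ctsm, Ctsq and Ctsr, were at 0. Ctsd, Ctss and Ctsb took 81.7% of the cathepsins' summed level, and Ctsz (4622 ± 277 TPM) and Ctsl (2766 ± 314 TPM) followed. Among 25 V-ATPase genes, 19 were detected with a median of 267 TPM over the list. The d2 subunit Atp6v0d2, known from osteoclasts and macrophages, led at 1546, 1873 and 1825 TPM, ahead of the a3 subunit Tcirg1 (943 ± 87.8 TPM) and Atp6v1b2 (828 ± 56.4 TPM), and no library of either reached its lowest value. The kidney-type Atp6v1b1, with Atp6v1e2 and Atp6v1g3, was at 0.

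Some lysosomal genes carry an E-box, CACGTG, in their promoters, the core of the element that the MiT/TFE factors bind. The promoters of Ctsd and Lamp1, picked after their values were seen, are shown because both genes ranked in the first 30 on both scales and both hold several copies. They are RefSeq windows of 300 bases (250 before to 50 after the start, GRCm38.p6), Ctsd at chr7:142387778-142388077 on the minus strand and Lamp1 at chr8:13158911-13159210 on the plus strand, written 5′ to 3′ with each CACGTG in capitals.
Ctsd: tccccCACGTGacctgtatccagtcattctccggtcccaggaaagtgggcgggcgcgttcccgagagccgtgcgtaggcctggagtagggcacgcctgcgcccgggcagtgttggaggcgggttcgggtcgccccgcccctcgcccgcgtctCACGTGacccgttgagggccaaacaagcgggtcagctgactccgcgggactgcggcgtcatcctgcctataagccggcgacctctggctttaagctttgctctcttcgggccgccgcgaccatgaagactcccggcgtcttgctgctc
Lamp1: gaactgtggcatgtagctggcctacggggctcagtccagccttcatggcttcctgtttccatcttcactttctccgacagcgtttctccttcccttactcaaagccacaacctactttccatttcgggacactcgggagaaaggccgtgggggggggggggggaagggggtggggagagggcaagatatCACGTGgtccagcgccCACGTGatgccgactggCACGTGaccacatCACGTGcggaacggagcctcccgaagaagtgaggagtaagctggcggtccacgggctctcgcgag
The Ctsd window held 2 copies and the Lamp1 window 4. The same 6 letters, which read alike on both strands, were in the promoter of 8.09% of 27025 genes and of 11.9% of the detected protein-coding genes with a promoter (1086 of 9102). Of the 37 lysosomal hydrolases, 30 had a promoter and 6 of them (20%) held it: Naglu, Gla, Glb1, Gaa, Arsa and Sgsh. The promoters of Psap, Lipa and Gusb, among the highest of that list, did not. For the cathepsins (15 of 19 with a promoter) and the V-ATPase genes (19 of 25), under 80% had a sequence, so their share is void. The factor genes themselves were at 44.7 ± 2.81 TPM for Tfeb, 52.5 ± 1.94 TPM for Tfe3 and 48.2 ± 2.7 TPM for Mitf. These letters are a description and no measure of binding.

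Lipid and iron genes followed. Apoe, the apolipoprotein that macrophages secrete with cholesterol, measured 10752, 10263 and 11970 TPM and took 56.9% of the summed level of 37 lipid-handling genes, of which 24 were detected. Next were the fatty acid chaperone Fabp5 (1602 ± 44.4 TPM), the lipid-droplet coat Plin2 (1390 ± 46.2 TPM), Lipa (1144 ± 101 TPM) and the cholesterol carrier Npc2 (1113 ± 21.4 TPM). Lpl, lipoprotein lipase, varied more, at 1246, 729.4 and 1085 TPM with replicate 2 the lowest. Apoa1, Fabp2 and Fabp6, which belong to liver and gut, were at 0. In the list of 20 iron genes, 18 were detected, and Ftl1 with Fth1 far exceeded heme oxygenase Hmox1 (717 ± 58.7 TPM) and the phagosomal metal carrier Slc11a1 (554 ± 45.5 TPM). The transferrin receptor Tfrc measured 179.7, 83.36 and 154.8 TPM. Replicate 2 was thus the lowest library for Tfrc, as it was for Ftl1 and Fth1.

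The Toll-like receptors were led by those that read RNA in endosomes. Of 12 Toll-like receptors 9 were detected. Tlr13, the receptor for bacterial ribosomal RNA, stood at 323.2, 371.4 and 365.7 TPM. Tlr8 (78.46, 110.4 and 124.5 TPM) and Tlr7 (66.38, 99.02 and 94.34 TPM) overlapped each other and lay under every library of Tlr13. The LPS receptor Tlr4, at 48.84 to 51.81 TPM, was below every library of Tlr7. Tlr2, a lipopeptide receptor, followed at 31.3 ± 5.89 TPM. The flagellin receptor Tlr5 read 10, 7 and 4 normalized counts and was not detected, nor were Tlr11 and Tlr12. All 19 genes for LPS sensing and adaptors were detected, led by Unc93b1, the chaperone of endosomal receptors (505.6, 529.6 and 670.4 TPM), then Cd180 (185 ± 6.51 TPM) and the LPS co-receptor Cd14 (162 ± 15.5 TPM). Of 29 cytosolic sensors 27 were detected. They were led by the inflammasome protease Casp1 (163 ± 21.3 TPM), the NAIP sensor Naip2 (90 ± 3.55 TPM) and gasdermin Gsdmd (78.6 ± 5.81 TPM), and Nlrp6 was at 0.

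Scavenger receptors spanned a wide range, with 18 of 23 detected. After Cd68, the fatty acid and oxLDL receptor Cd36 stood at 2205, 1794 and 1944 TPM. The endocytic receptor Lrp1 measured 375.3, 520.1 and 358.2 TPM, and the lysosomal Scarb2 (93.9 ± 6.57 TPM) and the class A receptor Msr1 (93.3 ± 11 TPM) overlapped each other. Among 13 complement receptors 11 were detected. The integrin chain Itgb2 (2518 ± 39.3 TPM) and the anaphylatoxin receptor C3ar1 (890.5, 949.9 and 948.3 TPM) led them. C5ar1, the receptor of the other anaphylatoxin, measured 230.2, 115.7 and 277.3 TPM, each library under those of C3ar1. Of 15 Fc receptors 9 were detected, among them the signalling chain Fcer1g (1704 ± 250 TPM) and the antibody receptors Fcgr3 (589 ± 51.1 TPM) and Fcgr4 (230 ± 31 TPM), while the epithelial Pigr was at 0. Among 31 lectins 21 were detected, and the galectin Lgals3 (10189 ± 389 TPM) took 81% of their summed level. Dectin-1, Clec7a, stood at 653, 762.8 and 1353 TPM, with replicate 3 well above the others. Clec4d, another receptor of fungal sugars, measured 533.2, 383.1 and 584.4 TPM.

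Receptors for cytokines and growth factors formed the next group, with 35 of 54 cytokine receptor chains detected. Il7r, better known from lymphocytes, was the highest at 779.8, 812.5 and 854.7 TPM, and Crlf2, the chain that pairs with it to bind thymic stromal lymphopoietin, was at 314 ± 39.8 TPM. The GM-CSF and IL-3 receptor chains Csf2rb2 (758 ± 103 TPM), Csf2rb (576 ± 74.7 TPM) and Csf2ra (446 ± 72.3 TPM) came between them. The ranges of Il7r and Csf2rb2 overlapped, and Csf2rb2 and Csf2rb are near-identical copies whose reads could be split between them. Il13ra2 and Il20ra were among those at 0. Among 54 receptor tyrosine kinases 27 were detected, and Csf1r took 57.9% of their summed level. The apoptotic-cell receptors Mertk (111 ± 12.2 TPM) and Axl (50.3 ± 5.07 TPM) followed. Of 26 TNF receptor genes 15 were detected, led by Tnfrsf1b (750.9, 730.2 and 764.1 TPM) above Tnfrsf1a (213.9, 171.7 and 202.6 TPM), and 11 of 14 receptors of the TGF-beta family were detected, led by Tgfbr1 (115 ± 7.35 TPM).

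Of 24 chemokine receptors 10 (41.7%) were detected, against 52.8% of all protein-coding genes, and the list's median was 0.446 TPM. Cxcr4, which binds CXCL12, led at 182.5, 293.6 and 260.6 TPM, ahead of Ccrl2 (135 ± 27 TPM) and Ccr1 (78.7 ± 19.5 TPM). Ccr2, the receptor by which monocytes leave the marrow, was at 2.17 ± 0.364 TPM, and Cx3cr1 was at 3.5 ± 1.09 TPM. Ccr8 was at 0. Of 41 receptors for chemoattractants and lipids 17 were detected. After C3ar1, the platelet-activating factor receptor Ptafr measured 489.3, 410.5 and 488.2 TPM, and S1pr2 was at 95.3 ± 10.6 TPM. Among 21 purine genes the ATP-gated channel P2rx4 (223 ± 15.2 TPM) was above the UDP receptor P2ry6 (104 ± 4.23 TPM) and P2rx7 (49.6 ± 4.2 TPM) in every library.

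The surface also carried inhibitory, adhesive and antigen-presenting molecules. Of 32 inhibitory and paired receptors 27 were detected. The adaptor Tyrobp (DAP12) read 2724, 3294 and 3949 TPM, and Sirpa, which binds CD47, 1215, 1340 and 1333 TPM. Cd52 (543 ± 141 TPM), Trem2 (486 ± 47.2 TPM) and Pirb (412 ± 11.9 TPM) followed, and Siglech was at 0. Of 26 integrin subunits 18 were detected, and Itgax, the alpha chain CD11c, exceeded Itgam in each library (388.6, 468.2 and 381 TPM). For the uptake of dying cells 21 of 25 genes were detected, led by the bridging protein Mfge8 at 2788, 3997 and 2602 TPM. Class I MHC was far above class II. B2m was at 9307 ± 1845 TPM, with replicate 2 the highest, and H2-D1 at 5402 ± 133 TPM, a value that other class I copies may share. The class II genes H2-Ab1 (75.11, 83.07 and 160.2 TPM), H2-Eb1 (79.84, 67.62 and 160.4 TPM) and their invariant chain Cd74 (429.8, 578.3 and 790.9 TPM) were highest in replicate 3. Among tetraspanins and MS4A genes, Cd53 (2031 ± 159 TPM), Cd9 (1383 ± 143 TPM) and Cd63 (1087 ± 72.7 TPM) led 13 detected of 22.

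**Figure D2:**
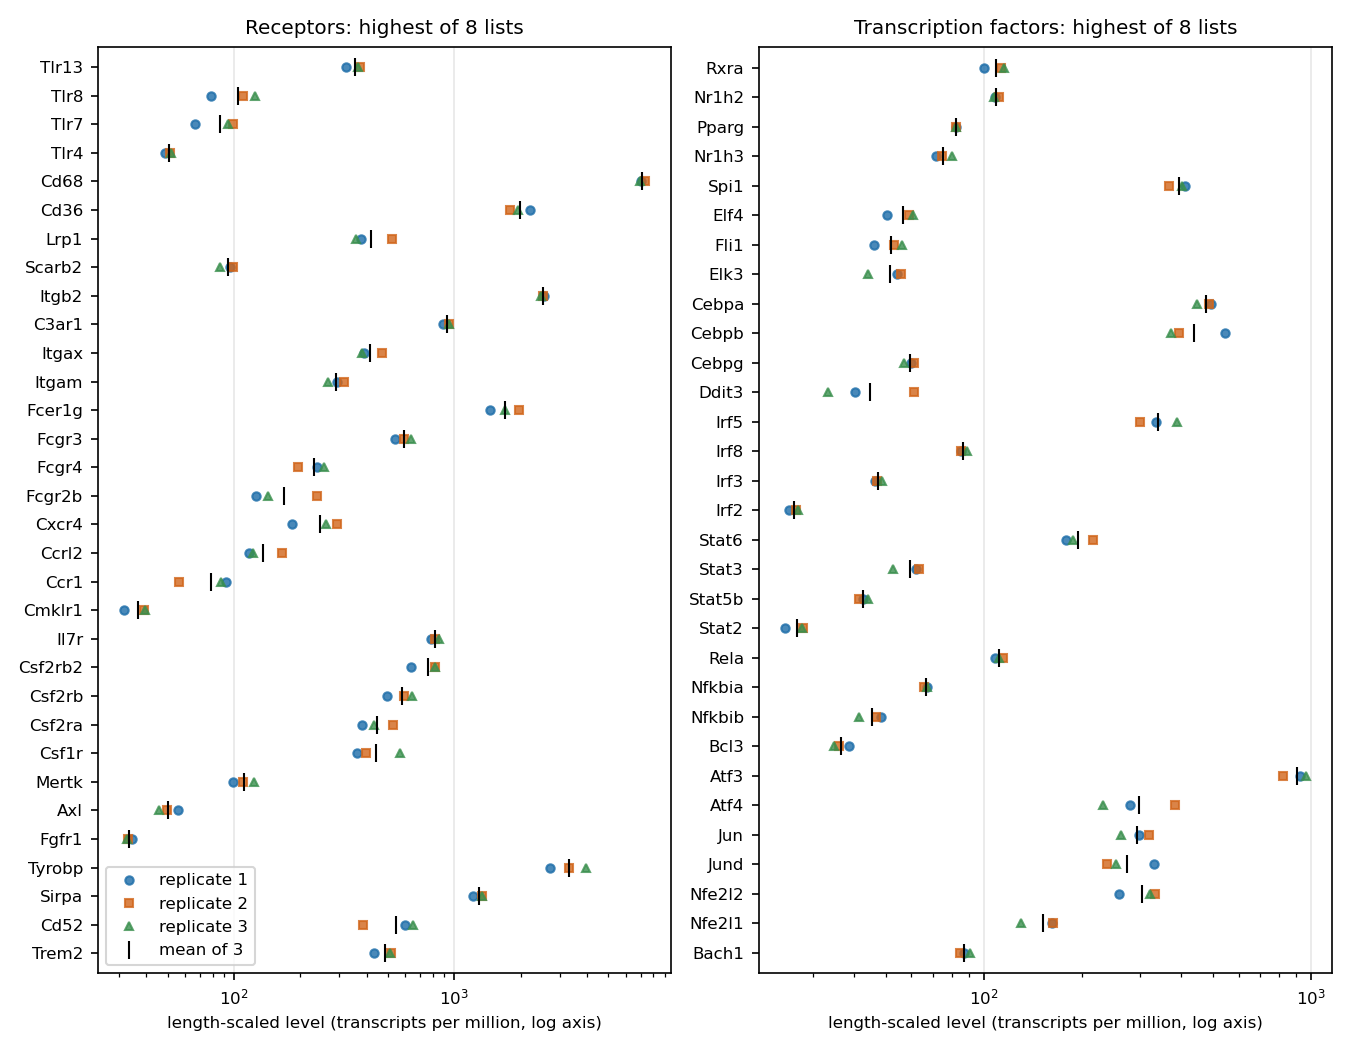
Length-scaled level in TPM (log axis) of the highest detected members, up to 4 a list, of 8 receptor lists (left) and 8 transcription factor lists (right), each gene drawn once, with a symbol per control library and a bar for the mean. Tlr13, at 323.2 to 371.4 TPM, stands apart from the other Toll-like receptors, Atf3 is the highest factor of its list, and Cebpa and Cebpb overlap.

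Spi1, Irf5 and Stat6 led their families of transcription factors. Spi1, which encodes PU.1, read 410.8, 369 and 402.8 TPM and took 49.2% of the summed level of 26 ETS genes. Cebpa (494.4, 486.2 and 446.6 TPM) and Cebpb (544.8, 393.7 and 373.5 TPM) overlapped, and replicate 1 was the library in which Cebpb exceeded Cebpa. Irf5 led the interferon regulatory factors (336, 299 and 389.6 TPM) above Irf8 (86.3 ± 2.03 TPM). The oxidant-responsive Nfe2l2 was at 305 ± 39.7 TPM. Atf3 was the highest of 21 AP-1 and ATF genes (923.9, 822.2 and 964.1 TPM), followed by Atf4 (298 ± 77.5 TPM), Jun (294 ± 29.1 TPM) and Jund (274 ± 49.6 TPM), whose ranges overlapped. Stat6, the IL-4 signal transducer, led 7 STAT genes at 194 ± 19.5 TPM, and Rela led 12 NF-kB and IkB genes at 111 ± 3.08 TPM. Every member of these last lists was detected.

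Of 49 nuclear receptors 26 were detected. The lipid-sensing receptors stood first: Rxra (100.1, 112.5 and 114.9 TPM) and the liver X receptor Nr1h2 (108.2, 110.8 and 107.5 TPM) overlapped, then came Pparg (81.86, 81.97 and 82.08 TPM) and Nr1h3 (71.31, 74.26 and 80.01 TPM). Each library of Pparg was above those of Nr1h3. The xenobiotic receptor Nr1i2 and the orphan Nr2e1 were among 8 at 0. Klf6 led the Kruppel-like genes (275 ± 12.6 TPM), Egr2 was at 81.1 ± 3.17 TPM, and Cbfb at 87 ± 2.81 TPM. In the list of basic helix-loop-helix and related factors, Id2 (348 ± 17 TPM), Bhlhe40 (260 ± 50.9 TPM) and the hypoxia factor Epas1 (203, 270.8 and 263.7 TPM) led. HOX genes were nearly absent, and SOX genes were low. Of 39 HOX genes 3 were detected, and Hoxb4 alone passed 10 TPM (12.31, 13.19 and 12.87 TPM), while 5 of 20 SOX genes were detected, led by Sox4 at 3.68 ± 1.55 TPM.

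In central metabolism the isoforms of glycolysis were uneven. Of 31 glycolysis genes 25 were detected with a median of 38.7 TPM. Aldoa (1993, 1902 and 1699 TPM), Pkm (982 ± 119 TPM), Gapdh (836 ± 139 TPM), Ldha (734 ± 153 TPM) and hexokinase Hk3 (693.4, 746 and 638.6 TPM) led. Gapdh has many processed copies, which leaves its level uncertain. Ldhc and Pgk2, isoforms of testis, and the liver isoform Pklr were at 0. Replicate 3 was the lowest library for each of the 5 leading genes. Glucose carrier Slc2a1 (GLUT1) measured 134, 187.8 and 103.9 TPM, and the lactate exporter Slc16a3 70.8, 79.41 and 41.25 TPM, both lowest in replicate 3. Of 39 genes of the pentose phosphate path and the TCA cycle 35 were detected, led by Taldo1 (680 ± 146 TPM), Idh1 (361 ± 44 TPM) and Pgd (275 ± 61.3 TPM).

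The kinases and enzymes that the study followed were all detected at rest. Akt1 stood at 270.2, 275.5 and 254.2 TPM and Akt2 at 52.66, 50.42 and 48.92 TPM. Every library of Akt1 was above those of Akt2. Acly, which makes acetyl-CoA from citrate, measured 134.8, 145.5 and 132.8 TPM. Its alternatives were lower, Acss1 at 38.1 ± 4.26 TPM with Acly at 77.4% ± 2.87 of the summed level of 4 genes. The kinase Tbk1 was at 77.96 ± 3.01 TPM, and 29 of 30 genes of the AKT pathway list were detected. For fatty acid oxidation, Cpt1a was at 67.9 ± 5.27 TPM and the thiolase Acaa2 at 82.4 ± 6.52 TPM. All 28 histone acetyltransferases and deacetylases were detected, led by Sirt2 (129 ± 8.43 TPM), Sirt7 (52.5 ± 2.12 TPM) and Kat7 (44.9 ± 2.3 TPM). The sterol acyltransferase Soat1 (387 ± 26 TPM) and Elovl1 (235 ± 8.52 TPM) led the lipid synthesis genes, and 23 of 30 were detected.

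Of 45 genes of the oxidase and of antioxidant defence 35 were detected, and the highest, Cyba, took 20.6% of their summed level. The phagocyte oxidase subunits Cyba (2302, 1936 and 2450 TPM) and Cybb (447.3, 471.4 and 450.5 TPM) were high, while Nox1 and Nox3 were at 0. Among antioxidants Gpx1 (1579 ± 114 TPM), Txn1 (1462 ± 189 TPM) and Prdx1 (1301, 716 and 1384 TPM) led, with replicate 2 lowest for each. Arg1, the arginase of alternatively activated macrophages, read 78.11, 318.4 and 33.55 TPM, so that replicate 2 decided its mean. Nos2, the inducible nitric oxide synthase, read 2, 8 and 2 normalized counts and was not detected. In eicosanoid synthesis Pla2g7 (357 ± 83.8 TPM) and Alox5ap (328 ± 64.9 TPM) led 14 detected of 26 genes. The constitutive cyclooxygenase Ptgs1 measured 33.95, 43.52 and 40.97 TPM against 2.52 ± 0.354 TPM for the inducible Ptgs2.

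Across 33 families of related genes, 30 had a member with over 50% of the summed length-scaled level and 15 a member with over 80%. Cybb took 100% of the 6 NADPH oxidase genes to 3 digits, Aldoa 99.2% ± 0.118, Slc2a1 98.5% ± 0.334 of class I glucose carriers, Cpt1a 98.4% ± 0.849 and Ldha 94.7% ± 1.07. Hk3 held 87.4% ± 0.598 of the hexokinases, with Hk2 at 58.0 ± 14.1 TPM and Hk1 at 41.9 ± 4.47 TPM. Plin2 held 86.3% ± 0.216 of the perilipins, Epas1 78.3% ± 2.93 of the HIF alpha genes and Pparg 76.3% ± 0.276 of the PPAR genes. Akt1 held 68.4% ± 1.5 of the AKT genes. The leader was the same in all 3 libraries in 32 families, and in the same 32 its lowest library was above the highest of the second member. The exception was the C/EBP family, where Cebpa held 48.8% ± 3.58. Pik3cb led the PI3K catalytic genes with 37.5% ± 1.61 and Itgax the alpha integrins with 38.2% ± 1.43. Without length correction Pfkp replaced Pfkl (57.6% ± 5.54) at the head of the phosphofructokinases.

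**Figure D3:**
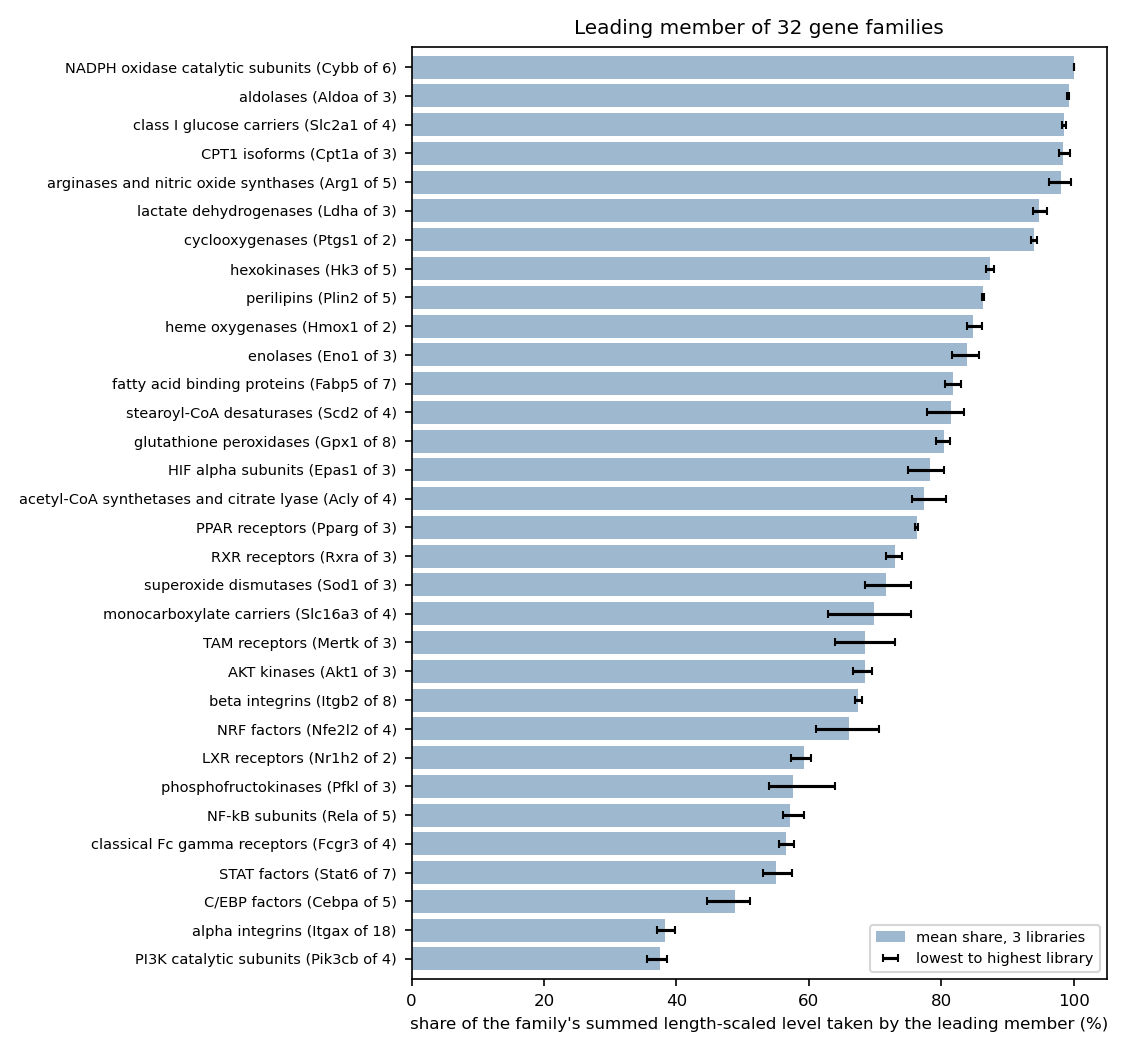
Share of the summed length-scaled level taken by the leading member in 32 of the 33 families (percent), as the mean of 3 control libraries (bars) with the lowest and highest library (whiskers). The leader and the number of genes in the family stand in parentheses, and the shares run from 37.5% for Pik3cb to 100% for Cybb.

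Few interleukin genes and no interferon gene were detected. Of 40 interleukin genes 10 were detected, with a median of 0.0676 TPM over the list, and 14 were at 0. The receptor antagonist Il1rn led with 156.8, 89.85 and 101.7 TPM, followed by Il1a (38.3 ± 7.29 TPM), Ebi3 (29.8 ± 3.32 TPM), Il15 (18.5 ± 3.42 TPM) and Il18 (16 ± 2.02 TPM). Il1b read 20, 11 and 7 normalized counts, Il6 2, 1 and 0, and Il12b 1, 2 and 1, and these 3 were not detected. All 21 interferon genes were at 0 in all libraries, Ifnb1 and Ifng among them. This allows an expected count of up to 3 reads of each in a library. The receptor chains Ifnar1 (68.6 ± 2.29 TPM) and Ifnar2 (103 ± 7.79 TPM) were detected. Tnf was detected at 8.141, 7.324 and 7.256 TPM, and Tnfsf12, which encodes TWEAK, took 85.5% of the summed level of 18 TNF family ligands (305.5, 339.2 and 293.6 TPM).

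Chemokines were uneven between genes and between libraries. Of 20 CC chemokines 10 were detected. Ccl6 stood at 827.4, 642.9 and 985 TPM, far above Ccl3 (125.3, 160.3 and 151.3 TPM), Ccl9 (71.91, 42.91 and 90.57 TPM) and Ccl4 (53.51, 52.18 and 55.77 TPM). Ccl2 measured 48.97, 26.8 and 15.43 TPM and Ccl5 6.54, 29.72 and 2.556 TPM, so that the highest library was several times the lowest for both. Ccl1, Ccl11, Ccl12, Ccl19 and Ccl26 were at 0. Of 17 CXC, XC and CX3C chemokines 9 were detected, led by Pf4 (85 ± 11.7 TPM) and Cxcl16 (74.5 ± 6.72 TPM). Of the 13 genes in the study's inflammatory qPCR panel, 9 were detected at rest and Il1b, Il6, Il12b and Ccl22 were not.

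Growth factors and matrix enzymes included very abundant messages. Spp1 and Grn, which encodes progranulin (2329, 2759 and 2179 TPM), led 24 detected of 37 growth factor genes, and Csf2 was at 0. Mif (358 ± 48.5 TPM), Tgfb1 (257 ± 31.2 TPM) and Vegfb (137 ± 24.5 TPM) followed. Mmp12, the macrophage elastase, stood at 2011, 1747 and 2343 TPM and took 62.5% of the summed level of 26 metalloproteinase and TIMP genes. Timp2 (864 ± 61.7 TPM) and Mmp19 (143 ± 38.3 TPM) came next, and Mmp1a, Mmp7 and Mmp20 were at 0. Coagulation factor F7 (662.9, 473.7 and 679.8 TPM) was the highest of 24 genes of coagulation, above the urokinase receptor Plaur (221 ± 12.9 TPM) and F10 (164 ± 27.6 TPM). The 3 chains of C1q, the starter of the classical complement pathway, led the complement genes, C1qb at 929.3, 772.3 and 1261 TPM, and C7 and C8a were at 0.

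Markers of peritoneal subsets were mixed. Gata6, the factor of resident large peritoneal macrophages, measured 10.49, 11.31 and 5.395 TPM, and Timd4 read 4, 7 and 16 normalized counts. Of 16 genes of that subset 13 were detected, led by fibronectin Fn1 (392.8, 341.3 and 170.4 TPM), which other cells also make. Of 18 genes of small peritoneal macrophages and monocytes 12 were detected, led by Cd74 (600 ± 182 TPM), H2-Ab1 (106 ± 47 TPM) and Mrc1 (103 ± 7.92 TPM). Ly6c2, a marker of blood monocytes, read 1, 1 and 0 normalized counts, and Ly6c1 was at 0. Of 17 genes of alternative activation 10 were detected. Beside Stat6 and Arg1 they included transglutaminase Tgm2 (144 ± 38.8 TPM), the mannose receptor Mrc1 (111.1, 101.9 and 95.29 TPM) and Retnla (22.6, 44.68 and 21.43 TPM), with Chil4 at 0. Ear2, Mgl2, Pdcd1lg2, Ccl24, Ccl22 and Ccl17 had reads but were not detected.

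Defining markers of several other cell types were at 0, and the lists' sums rested on a few genes. For T and NK cells 2 of 18 genes were detected, Cd3e, Cd8a and Ncr1 were at 0, and Il7r made up 99.5% of that list's summed level. For B cells 4 of 15 genes were detected, with a summed level of 25.9 to 44.4 TPM. Cd79a was at 1.95 ± 0.23 TPM and Ighm at 15.61, 15.55 and 27.42 TPM. For neutrophils 6 of 14 genes were detected with a summed level of 102, 141 and 211 TPM. The G-CSF receptor Csf3r (64.1, 90.03 and 92.95 TPM) and the collagenase Mmp8 (13.59, 17.2 and 99.17 TPM) led them, S100a8 was at 9.49 ± 0.663 TPM and Ly6g at 0. For eosinophils 1 of 8 genes was detected, Siglecf at 24.3 ± 1.92 TPM, and Epx and Prg2 were at 0. The mast cell and basophil list summed to 9.89 ± 0.489 TPM, with 5 of 11 genes detected. Of 12 dendritic genes 4 were detected with a summed level of 195 ± 4.91 TPM, of which the interferon-inducible Bst2 made up 93.6%, and Clec9a was at 1.64 ± 0.654 TPM. Of 10 endothelial genes 3 were detected with a sum of 29 ± 5.26 TPM, led by Vwf (19.4 ± 3.28 TPM) and Kdr (7.49 ± 1.49 TPM), while Cdh5 was at 0.385 ± 0.0614 TPM. Of 12 erythroid and platelet genes 2 were detected with a sum of 87.2 ± 11.6 TPM, of which the platelet chemokine Pf4 made up 97.5%, and the globin Hbb-bs was at 0. The mesothelial and fibroblast list had the most genes detected. Its podoplanin gene Pdpn, which inflammatory macrophages also express, was steady at 438.9, 406.6 and 406.7 TPM. Collagen Col1a1 read 291, 208 and 59.08 TPM and the matrix protein Sparc 248.5, 175.1 and 68.07 TPM, both lowest in replicate 3. Among mesothelial genes Upk3b (14.56, 8.474 and 2.46 TPM), Wt1 (9.28, 9.816 and 2.712 TPM) and Upk1b (8.172, 3.109 and 2.349 TPM) were detected and also lowest in replicate 3. Krt8 was nearly level at 36, 34 and 32 normalized counts, Krt19 read 26, 37 and 17, and Msln was under the limit.

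**Figure D4:**
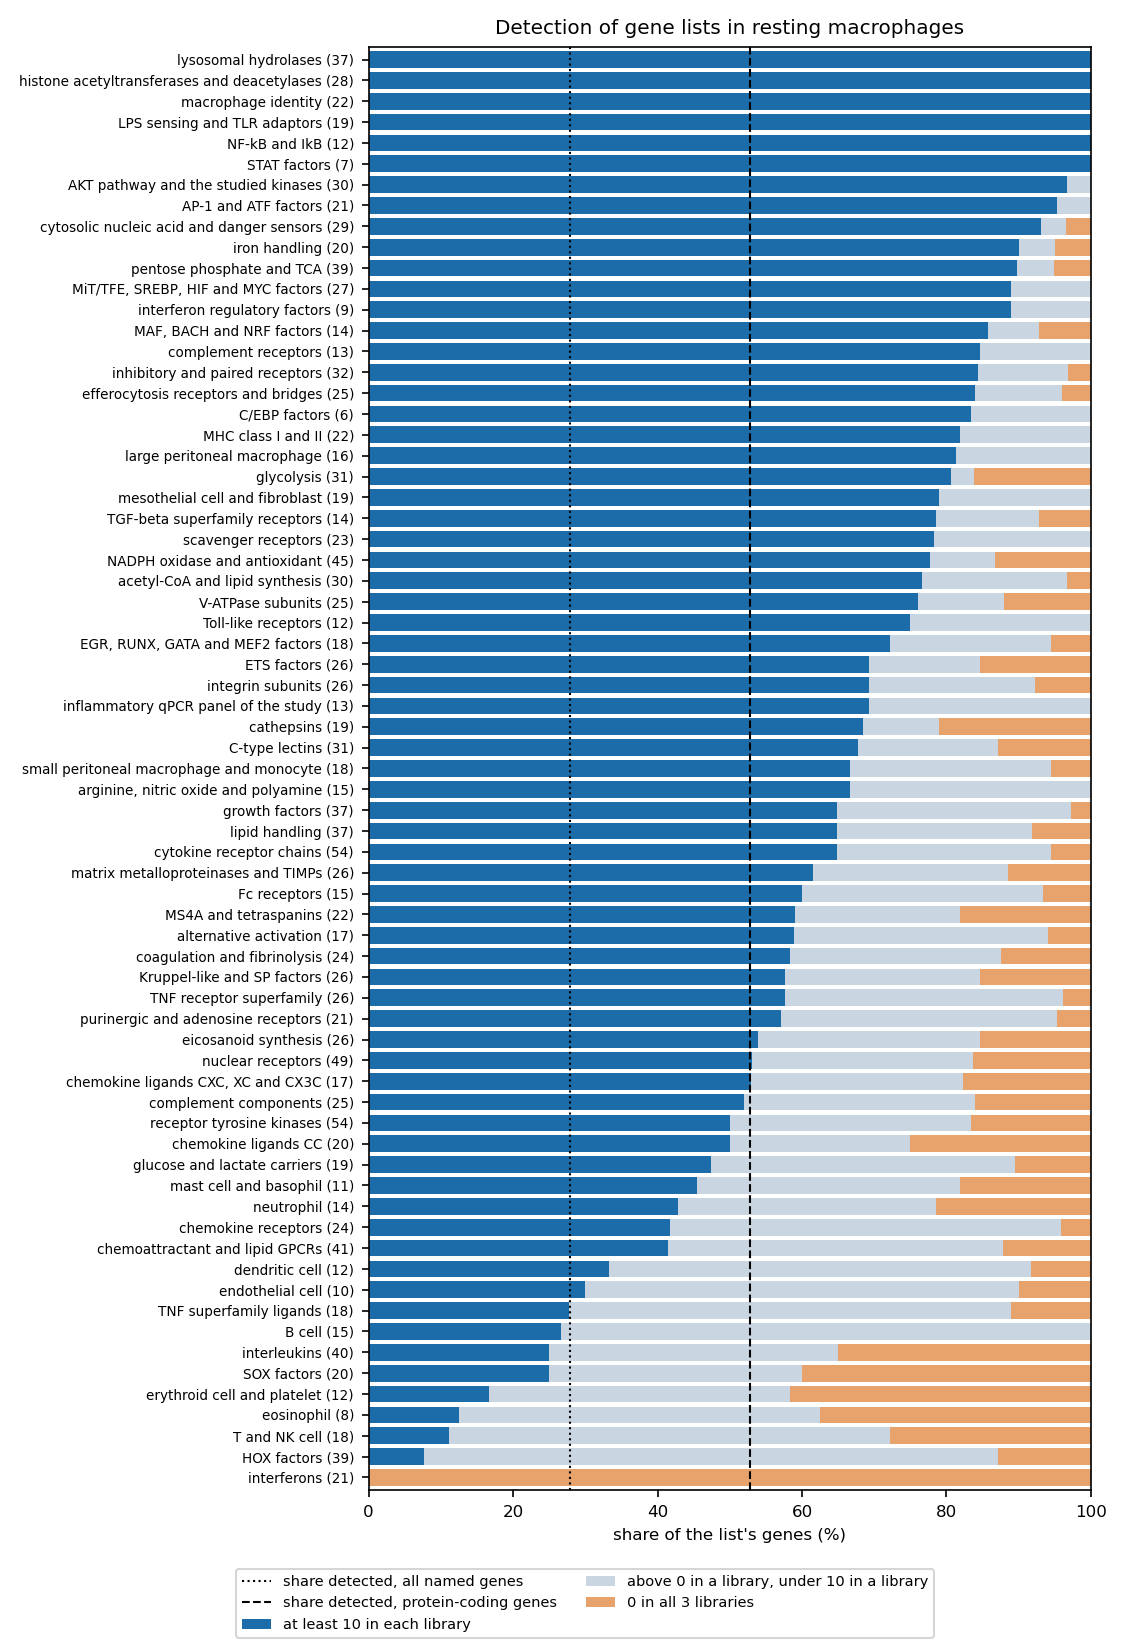
Share of each of 69 gene lists (percent of its genes, number in parentheses) that was detected in all 3 control libraries, read in part or at 0. Dotted and dashed lines mark the 27.9% of all named genes and the 52.8% of protein-coding genes detected. In all, 6 lists were detected whole, 50 lay above the protein-coding share, and the interferons had no member detected. The lists were chosen with earlier results of these data known, so these shares are a description only.

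The replicates resembled each other in most genes. Among 9349 genes with a mean of at least 100 normalized counts, the highest library was 1.17 times the lowest at the median and 1.44 times at the 90th percentile, and the median coefficient of variation was 8%. Pearson's correlation of log2(value + 1) across these genes was 0.979, 0.980 and 0.976 for replicates 1 and 2, 1 and 3, and 2 and 3, a description over genes, which are not independent replicates. A range over 2 times was found in 271 genes (2.9%). Replicate 3 was the lowest library for 202 of them and replicate 1 the highest for 157. Without replicate 3 the genes over 2 times numbered 49.

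Of the 15 widest genes 5 were the sex-linked ones. The matricellular Ctgf (268, 173 and 27 normalized counts), collagen Col5a2 (1059, 729 and 170), smooth muscle actin Acta2 (793, 566 and 133), mesothelial Upk3b (262, 152 and 46), Prrx1 (110, 195 and 37) and desmin Des (804, 839 and 165) were lowest in replicate 3. The mesothelial and fibroblast list, which holds Acta2 and Upk3b, was also lowest in replicate 3 (640 against 1430 and 1120 TPM), and its part in the spread of these genes was not tested. Prrx1 and Des were highest in replicate 2, unlike that list. Another 3 genes had other patterns. Arg1 was highest in replicate 2 (887, 3605 and 396), the collagenase Mmp8 in replicate 3 (168, 212 and 1274), and the complement receptor Vsig4 was low in replicate 1 (50, 263 and 300). The sum of the neutrophil list was highest in replicate 3, but it includes Mmp8 itself and so cannot be set beside it. Among the other detected members, Csf3r measured 64.1, 90.03 and 92.95 TPM and Mmp9 10.92, 17.96 and 4.374 TPM. S100a8 measured 8.764, 9.641 and 10.06 TPM, Cxcr2 2.446, 2.776 and 2.353 TPM, and Lcn2 0.9725, 1.125 and 1.079 TPM. Ly6g, Camp and Retnlg were at 0 in all 3 libraries. The part of neutrophils in the level of Mmp8 was not tested. With 3 libraries of 1 group no test between them is possible.

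**Figure D5:**
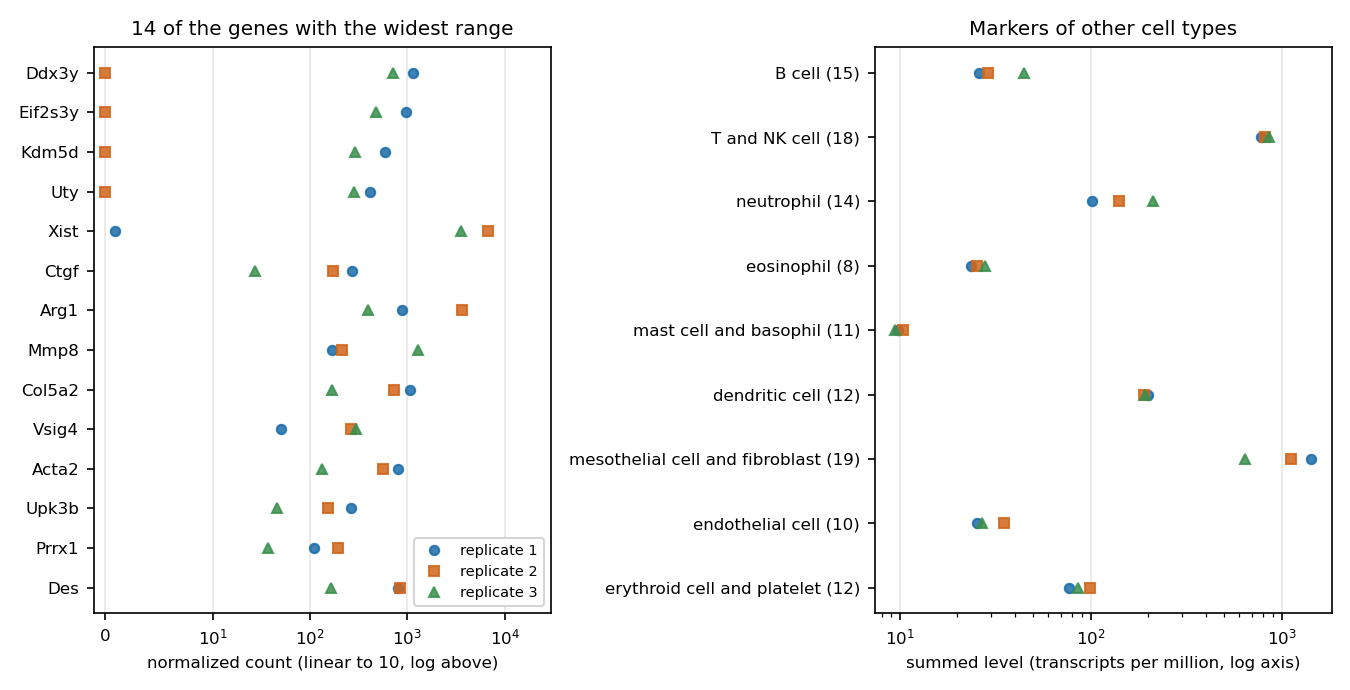
Normalized counts per library (linear up to 10 and log above) of 14 of the 15 genes with the widest range among 9349 genes (left), and the summed length-scaled level of each list of markers of other cell types (right, log axis, number of genes in parentheses). Mesothelial and fibroblast markers fall from 1430 TPM in replicate 1 to 640 TPM in replicate 3.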

How the data were processed

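Directional poly(A) libraries were trimmed by the authors (Trimmomatic 0.32). STAR (2.5.1b) placed the reads on the mm10 build, which is GRCm38, and featureCounts summed those in exons of GENCODE vM4. Whether counting used the strand is not given in the sources used here. Each deposited signal value, for 43278 symbols, is an integer, and the values of a library behave as read counts divided by a factor per library and rounded. Columns of the 9 treated libraries were not used. A spreadsheet had turned 25 symbols into dates (at most 0.16% of a library), and these stayed out.

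From there, the factor of each library was fitted to the histogram of its values with python (3.11.15), numpy (2.4.6) and pandas (2.3.3), a step tested on 5 simulated columns of 43278 genes (largest error 0.0048%). TPM used merged exon lengths of GENCODE vM21, matched for 40382 symbols. Symbols without a length held at most 0.316% of the signal. Reads of overlapping genes and close copies cannot be told apart. The text names the 5 markers, the 30 highest genes on each scale, the 5 highest members and the members at 0 of 71 lists, the first and second member of 33 families, the study's own genes and the 15 most variable genes. Some genes of this rule are not reported here. Other names were chosen after their values were seen. So were the 9 motif strings searched on both strands of the promoters: CACGTG (E-box), with TCACGTG, TCACGTGA and a longer form that contain it, CATGTG (M-box), GAGGAA (ETS core), with GAGGAAGT and the PU.1 motif that contain it, and TATAAA. The text gives only CACGTG and the forms that contain it. Members, lists and families were chosen with earlier results of these data known. No test was made, since 1 group has no comparison. Alternatives changed the detection limit, the length, the scaling between libraries and the set of replicates. Figures were drawn with matplotlib (3.10.9).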

Additional observations from a re-analysis of the deposited data

How the results depend on the processing

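Counting genes above 0 in at least 1 library gave 21384 in place of 12061, and ranking per exonic length gave the 30 highest genes 31.8% of the total in place of 23.9%. The genes with a range over 2 times numbered 1179 at a mean of at least 10 and 32 at a mean of at least 1000, against 271 at 100. Leaving out a replicate gave 49 to 194 such genes, the lowest without replicate 3. It gave 12191 to 12352 detected genes, 984 to 1005 detected list members of 1523 (976 with all libraries), 23.8% to 24.1% for the 30 highest genes, and 2283 to 2573 TPM for the markers of other cell types (2414 TPM with all). The leader of all 33 families stayed under these and with the longest transcript, and 32 stayed without length correction. Low genes limit the lists: with a limit of 1 TPM in place of 10 normalized counts, 902 list members were detected. Per-length levels rest on a later annotation than the authors counted with. No paired analysis was possible because 1 group was described and no result came from a test.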

Other observations

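Noncoding RNAs added little to this poly(A) signal. The lincRNAs held 0.345% to 0.352% of the normalized counts, with 136 of 2506 detected. Neat1, the RNA scaffold of nuclear paraspeckles, read 31455, 27628 and 30144 normalized counts and ranked 42 by the mean, and Malat1, a neighbour on chromosome 19, read 12024, 10178 and 12178. The mitochondrially encoded genes held 1.6% to 1.71%, and cytosolic ribosomal protein genes 1.94% to 2.41% with 83 of 86 detected.

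Large families of sensory and epithelial genes were mostly silent, and a few members stood out. Of 1254 olfactory receptor symbols 1198 were at 0 and 2 were detected, the neighbours Olfr111 (47, 102 and 130 normalized counts) and Olfr110 (16, 11 and 12) on chromosome 17. None of 328 vomeronasal receptors and none of 73 defensins was detected. Of 115 cytochrome P450 genes 14 were detected, led by Cyp4v3, a fatty acid hydroxylase (139.5, 204.1 and 161.7 TPM). Of 51 keratins 3 were detected, among them Krt80 at 3.31 ± 0.698 TPM. Of 348 solute carriers 183 (52.6%) were detected, near the 52.8% of all protein-coding genes, led by the taurine carrier Slc6a6 (20558, 24678 and 24097 normalized counts), and 32 of 50 ABC transporters, among them the cholesterol exporters Abcg1 (158 ± 12.3 TPM) and Abca1 (31.5 ± 9.27 TPM).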
